A study of Mus musculus with 7 samples.

Results

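Genomic imprinting is the expression of a gene from only the maternal or only the paternal copy. Imprinted genes lie in clusters, where a differentially methylated control region sets which copy is used, and long noncoding RNAs such as H19, Meg3, Kcnq1ot1 and Airn are transcribed from them. Trimethylation of lysine 27 of histone H3 (H3K27me3), laid down by Polycomb repressive complex 2, covers silent genes in broad domains and marks the silent copy of several imprinted genes, best known from mouse placenta and embryonic cells. In mouse liver, H19, Igf2 and Dlk1 are active before birth and are shut down afterwards.

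H3K27me3 islands were described here in 5 windows of the mouse genome (build mm9) that hold 10 imprinted genes, as mapped by chromatin immunoprecipitation and sequencing in 7 livers of male CD-1 mice, an outbred stock, aged 7 weeks. The livers came from 4 mice injected with TCPOBOP at 3 mg/kg and 3 mice injected with vehicle (1% DMSO in corn oil), and were taken after 27 h. TCPOBOP activates the mouse constitutive androstane receptor, which switches on genes of drug metabolism and makes the liver grow, and the comparison asked how the mark differed after it. Every island that overlapped one of the 5 windows was taken. The windows were set by position and not by any measured value, although earlier results of these data were known. They lay on chromosome 7 from 149700000 to 150750000 (H19, Igf2, Kcnq1 and Cdkn1c), chromosome 12 from 110600000 to 111350000 (Dlk1 and Meg3), chromosome 17 from 12550000 to 13050000 (Igf2r and Slc22a3), chromosome 2 from 174050000 to 174250000 (Gnas) and chromosome 7 from 6600000 to 6800000 (Peg3). They held 212 of the 122262 islands (0.173%), with 31, 34, 31 and 33 islands in TCPOBOP replicates 1 to 4 and 22, 37 and 24 in vehicle replicates 1 to 3.

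The deposited values were 1 list of islands for each liver. The lists held no read numbers, so the depth behind an island is unknown, and they do not separate the maternal from the paternal copy. Whole liver was used, so cells that carry the mark cannot be told from cells that do not, and with no RNA measured the tissue label was not tested. Genes were taken from the window definitions. No mm9 gene annotation was used here, so an island is placed in a window and not on an exon or promoter. The lists held 14167 to 20550 islands that spanned 537 to 605 Mb. The livers numbered 2 stood apart in both groups. Each had 537 Mb under islands, against 583 to 605 Mb in the other 5, and a median score per 400-bp window of 3.05 (TCPOBOP replicate 2) and 3.02 (vehicle replicate 2), against 2.56 to 2.79.

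Polycomb complexes in mammals are drawn to DNA rich in unmethylated CpG dinucleotides, so promoter sequences of 3 of the genes are shown for context, with each CG in capitals. They run 5′ to 3′ over 300 bases, from 250 before to 50 after a transcription start, and are RefSeq sequences of build GRCm38.p6. They were not placed on the mm9 islands.
Igf2r: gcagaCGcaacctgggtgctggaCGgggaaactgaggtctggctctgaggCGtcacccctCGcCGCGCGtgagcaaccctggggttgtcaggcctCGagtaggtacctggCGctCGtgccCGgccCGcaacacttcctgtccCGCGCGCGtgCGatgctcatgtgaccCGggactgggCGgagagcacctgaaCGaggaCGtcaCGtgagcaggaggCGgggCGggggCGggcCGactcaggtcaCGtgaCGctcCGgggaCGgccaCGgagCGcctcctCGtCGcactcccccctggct
Slc22a3: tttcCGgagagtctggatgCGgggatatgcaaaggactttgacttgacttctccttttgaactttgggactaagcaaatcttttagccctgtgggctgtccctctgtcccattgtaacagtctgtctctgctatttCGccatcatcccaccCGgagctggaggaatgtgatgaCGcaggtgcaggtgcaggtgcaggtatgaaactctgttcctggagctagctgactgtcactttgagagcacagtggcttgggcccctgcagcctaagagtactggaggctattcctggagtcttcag
Peg3: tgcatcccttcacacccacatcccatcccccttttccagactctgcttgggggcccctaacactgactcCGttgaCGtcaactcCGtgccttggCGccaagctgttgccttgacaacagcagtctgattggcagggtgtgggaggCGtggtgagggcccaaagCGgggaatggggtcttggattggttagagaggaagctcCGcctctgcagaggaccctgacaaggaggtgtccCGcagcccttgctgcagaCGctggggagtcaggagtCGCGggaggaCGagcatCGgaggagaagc
The Igf2r sequence held 34 CG dinucleotides, the Peg3 sequence 13 and the Slc22a3 sequence 5, against a median of 7 over 32851 promoters of the same length. Igf2r and Slc22a3 lie in the same window, and their promoters were on opposite sides of that median. The quartiles over the 32851 promoters were 3 and 20. Slc22a3 and Peg3 lay between these quartiles and Igf2r above them. Sequences were matched for 7 of the 10 genes, with 14 starts. Those not shown held from 1 (a Meg3 start) to 40 (a Gnas start) CG dinucleotides. Starts of the same gene also differed, as in Igf2 with 2 to 24.

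Islands covered more of 4 of the windows than of most autosomal stretches of the same length, and the Peg3 window was near the median of such stretches. Averaged over the 7 livers, islands covered 50.3% of the H19-Igf2-Kcnq1-Cdkn1c window, 41.0% of the Dlk1-Meg3 window, 44.6% of the Igf2r-Slc22a3 window, 54.7% of the Gnas window and 9.60% of the Peg3 window. The autosomes were tiled with stretches as long as each window, and the share of tiles with a lower mean cover was 88.4% for the H19-Igf2-Kcnq1-Cdkn1c window, 79.2% for Dlk1-Meg3, 80.9% for Igf2r-Slc22a3, 84.5% for Gnas and 46.1% for Peg3. The median cover of these tiles was between 12.4 and 19.1%. Of all bases under an island in any liver, 36.6% were under islands in all 7 livers in the 5 windows, and 29.0% over the whole genome. The share was 47.5% in the H19-Igf2-Kcnq1-Cdkn1c window and 0% in the Peg3 window.

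**Figure D1:**
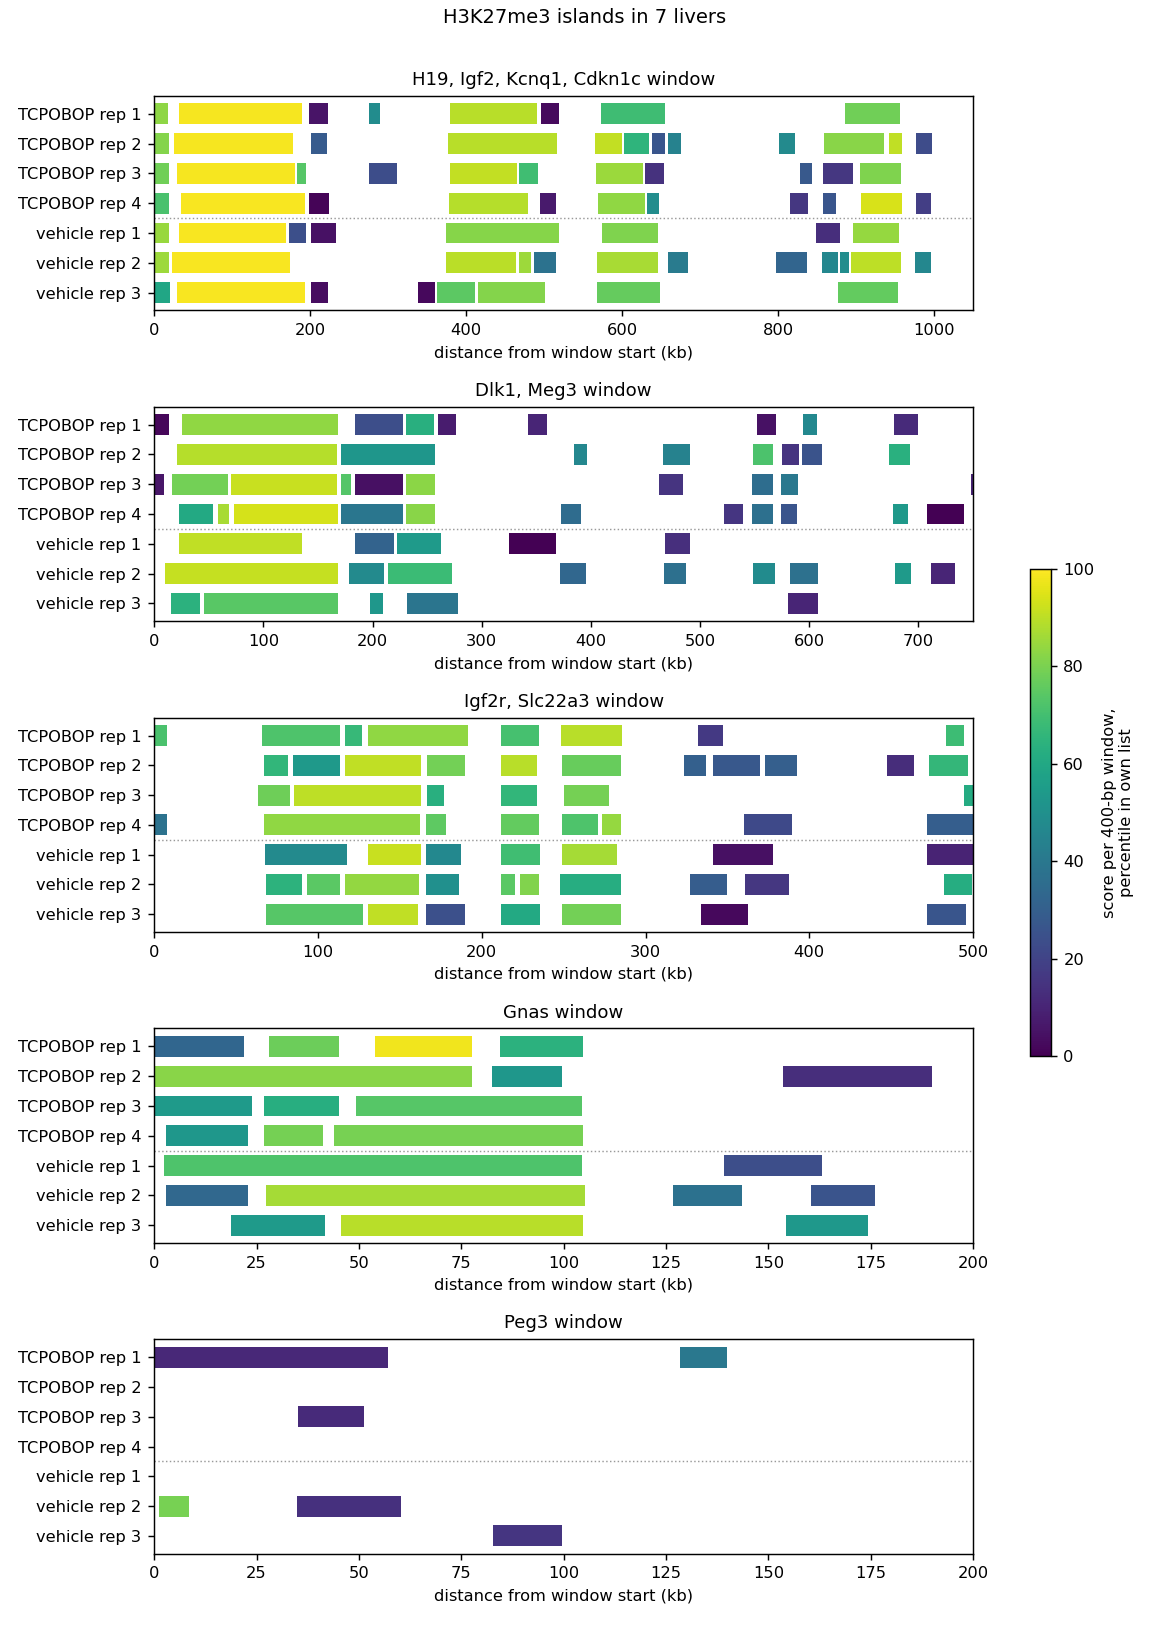
Islands in the 5 windows, 1 row per liver with TCPOBOP livers above vehicle livers, against distance from the window start in kb; colour gives the score per 400-bp window of an island as its percentile in the list of its own liver. The yellow island near the left end of the top panel lay above the 98th percentile in all 7 lists, and the Peg3 panel is empty in 3 livers.

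The H19-Igf2-Kcnq1-Cdkn1c window held the densest island of all the windows. H19 encodes a maternally expressed noncoding RNA, Igf2 the paternally expressed insulin-like growth factor 2, Kcnq1 a potassium channel subunit and Cdkn1c the cell cycle inhibitor p57. In RefSeq's gene order these 4 follow each other as named, with Ins2, Th, Ascl2, Tspan32, Cd81, Tssc4 and Trpm5 between Igf2 and Kcnq1. The densest island started between 149723201 and 149734801 and ended between 149869200 and 149894000. It was 158.0, 152.8, 150.8 and 159.2 kb wide in TCPOBOP replicates 1 to 4 and 137.2, 151.2 and 163.6 kb wide in vehicle replicates 1 to 3. Its width overlapped between the groups, and the stretch from 149734801 to 149869200, 134.4 kb, was under this island in every liver.

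The score per 400-bp window of that island, the authors' score divided by its length in windows, was 7.39, 11.8, 7.85 and 9.24 in TCPOBOP replicates 1 to 4 and 7.48, 13.6 and 9.04 in vehicle replicates 1 to 3. Because scores depend on depth, they were set only beside other islands of the same list. There the island ranked at percentile 98.5, 98.8, 98.7 and 98.8 in TCPOBOP replicates 1 to 4 and at 99.2, 99.03 and 99.1 in vehicle replicates 1 to 3. All ranks thus lay between 98.5 and 99.2, in lists that held from 14167 to 20550 islands. The ranks were not compared between the groups. How often ranks of islands elsewhere separate by group was not counted.

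Next to it, an island that reached in from outside the window ended between 149718000 and 149718800 in 6 of 7 livers and at 149720800 in vehicle replicate 3. The gap between the pair was 4.40 to 16.4 kb long and was free of islands from 149720801 to 149723200 in all livers. At higher coordinates, 3 further blocks were found in every liver, with shared stretches from 150079601 to 150179200, from 150274801 to 150345600 and from 150606801 to 150654400 that were broken only by gaps of 2.8 to 5.6 kb. A stretch of 112.4 kb from 150384401 to 150496800 was free of islands in all 7 livers, as was the end of the window from 150696801, 53.2 kb. The islands over the shared stretches of these blocks ranked lower than the densest one, with a median percentile over livers of 69.0 to 89.1.

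The 5 regions of this window found in all livers differed between the groups by -7.12 to 9.20 percentage points. The largest was the region from 149574801 to 149720800, which lies mostly outside the window, with 90.2 ± 7.47% under islands with TCPOBOP (SD, n = 4) and 81.0 ± 5.62% with vehicle (SD, n = 3), a difference of 9.20 (SE 6.53, limma adjusted p = 1). The region of the densest island differed by 0.04 percentage points (SE 4.35). The regions from 150063201, 150265601 and 150548801 differed by -7.12 (SE 7.47), 5.01 (SE 5.55) and -5.73 (SE 11.6), each with a limma adjusted p of 1.

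Cover of the window was 47.7, 53.9, 49.4 and 48.7% in TCPOBOP replicates 1 to 4 and 49.1, 53.7 and 49.4% in vehicle replicates 1 to 3. The livers numbered 2 were the highest of each group, although their lists spanned the least genome. The means were 49.9 ± 2.77% with TCPOBOP (SD, n = 4) and 50.7 ± 2.58% with vehicle (SD, n = 3), and they differed by -0.82 percentage points, less than 1 SD of either group (95% interval -6.10 to 8.55, two-sided exact permutation p = 0.571). The smallest p this design allows is 0.0286. Without vehicle replicate 2 the sign turned, to 0.67.

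The Dlk1-Meg3 window was densely covered over its first part and sparsely elsewhere. Dlk1 is a paternally expressed transmembrane protein of the Notch ligand family and Meg3 a maternally expressed noncoding RNA, after which a large microRNA cluster follows. A stretch of 62.8 kb from 110672801 to 110735600 was under islands in all 7 livers. Islands over it ranked at percentile 83.2, 89.0, 91.5 and 93.7 in TCPOBOP replicates 1 to 4 and at 90.5, 91.4 and 74.2 in vehicle replicates 1 to 3. The region around it, from 110590401 to 110768800, differed by 7.32 percentage points (SE 8.31, limma adjusted p = 1). A second region, from 110770801 to 110878000, was also found in all livers, with 77.99 ± 2.74% under islands with TCPOBOP (SD, n = 4) and 70.1 ± 15.1% with vehicle (SD, n = 3). Beyond 110878000 no base of the window was under islands in all 7 livers, and 9 further regions were found in 1 to 6 livers.

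Cover of the Dlk1-Meg3 window was 41.5, 45.4, 39.5 and 45.2% in TCPOBOP replicates 1 to 4 and 34.0, 49.9 and 31.4% in vehicle replicates 1 to 3. All TCPOBOP livers lay between vehicle replicate 2 and the other vehicle livers. The means were 42.9 ± 2.89% with TCPOBOP (SD, n = 4) and 38.5 ± 10.0% with vehicle (SD, n = 3), a difference of 4.43 percentage points that did not pass the test (95% interval -10.45 to 13.97, two-sided exact permutation p = 0.400). Vehicle replicate 2 set the spread of its group: without it the difference was 10.2 (exact permutation p = 0.0667, the smallest that 4 against 2 livers allow), whereas without vehicle replicate 3 it was 0.91 and without vehicle replicate 1 it was 2.21. It was 2.86 with the lowest 10% of scores left out and 1.61 with lists of equal total length. Without both livers numbered 2 it was 9.32 (exact permutation p = 0.1, the smallest that 3 against 2 allow).

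The region with the lowest unadjusted p of all the windows lay here, on chromosome 12 from 111147601 to 111169200. Islands covered 79.6, 87.0, 88.9 and 90.7% of its 21.6 kb in TCPOBOP replicates 1 to 4, and 0, 94.4 and 0% in vehicle replicates 1 to 3. Every TCPOBOP liver had an island there, and vehicle replicate 2 had the widest of all, so the groups overlapped. The difference of 55.1 percentage points (SE 20.03) did not pass the test across all regions (limma unadjusted p = 0.00759, adjusted p = 1). Without vehicle replicate 2 it was 86.6 percentage points (limma adjusted p = 0.366). With the lowest 10% of scores left out, or with lists of equal total length, it was 35.2 percentage points. The islands ranked between percentile 4.43 (TCPOBOP replicate 1) and 71.6 (TCPOBOP replicate 2) in their lists.

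The Igf2r-Slc22a3 window had the edges that recurred most closely. Igf2r encodes the receptor that carries insulin-like growth factor 2 to the lysosome and is expressed mainly from the maternal copy in most mouse tissues. Slc22a3 encodes an organic cation transporter that is imprinted in mouse placenta. An island began at 12761601 in 6 livers and at 12762001 in TCPOBOP replicate 2, a spread of 1 window of 400 bp over 7 livers. Another began between 12716001 and 12716801 in 6 livers, all but TCPOBOP replicate 1, and a further one between 12797601 and 12798801 in 6 livers, all but TCPOBOP replicate 3. Of the 110 island edges in the window, 23 (20.9%) had an edge of the same kind within 3 windows in at least 5 other livers, against 8.87% of 244524 edges in the whole lists. The share was 14.6% of 41 edges in the Gnas window, 4.51% of 133 in the H19-Igf2-Kcnq1-Cdkn1c window, 3.60% of 111 in the Dlk1-Meg3 window and 0% of 11 in the Peg3 window. Over the 5 windows it was 9.61% of 406 edges, close to that of the whole lists. Edges of different livers at a place are counted once per liver and are not independent.

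The 4 regions found in all livers lay from 12613601 to 12741600, 12761601 to 12785600, 12797601 to 12835600 and 13021601 to 13085600. The region that starts at 12761601 was 96.7, 90, 91.7 and 96.7% covered in TCPOBOP replicates 1 to 4 and 100, 83.3 and 100% covered in vehicle replicates 1 to 3. The groups overlapped, and the difference was -0.69 percentage points (SE 4.03, limma adjusted p = 1). The regions from 12613601, 12797601 and 13021601 differed by 2.58 (SE 6.48), -5.61 (SE 5.05) and -5.99 (SE 19.4) percentage points, each with a limma adjusted p of 1. No island was found from 12557601 to 12613600, 56.0 kb, or from 12942401 to 12997600, 55.2 kb, in any liver. A region that reaches in over the lower edge of the window, from 12529201 to 12557600, had 42.3, 54.9, 0 and 87.3% under islands in TCPOBOP replicates 1 to 4 and 0% in the 3 vehicle livers (difference 46.1, SE 31.7, limma adjusted p = 1). It was found in 3 of 4 TCPOBOP livers and 0 of 3 vehicle livers, but its part inside the window held islands only in TCPOBOP replicates 1 and 4. This region, too, was picked for the lowest unadjusted limma p of its window, 0.150. The share of all regions with such a split was not counted.

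Cover of the Igf2r-Slc22a3 window was 42.7, 54.3, 32.6 and 45.7% in TCPOBOP replicates 1 to 4 and 45.3, 46.3 and 45.4% in vehicle replicates 1 to 3. The vehicle livers were close together, and the TCPOBOP livers lay on both sides of them. The means were 43.8 ± 8.98% with TCPOBOP (SD, n = 4) and 45.7 ± 0.579% with vehicle (SD, n = 3), a difference of -1.83 percentage points (95% interval -28.1 to 22.66, two-sided exact permutation p = 0.686). Without TCPOBOP replicate 3 the sign turned, to 1.92.

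In the Gnas window the islands stopped near a common end. Gnas encodes the stimulatory G protein alpha subunit and, from other promoters, imprinted transcripts of maternal or paternal origin. The region from 174044801 to 174155200 was found in all 7 livers, and its last island ended between 174154400 and 174155200 in 6 of them and at 174149600 in TCPOBOP replicate 2. Islands covered 86.9 ± 5.96% of that region with TCPOBOP (SD, n = 4) and 85.1 ± 9.59% with vehicle (SD, n = 3), a difference of 1.72 percentage points (SE 6.63, limma adjusted p = 1). The next 21.6 kb, to 174176800, held no island in any liver. Beyond it, the region from 174176801 to 174240000 was covered to 0, 57.6, 0 and 0% in TCPOBOP replicates 1 to 4 and to 38.0, 51.3 and 31.6% in vehicle replicates 1 to 3. Only 1 of 4 TCPOBOP livers had an island there, against 3 of 3 vehicle livers, and that liver had the highest cover of all (difference -25.9, SE 31.4, limma adjusted p = 1). The region was picked for having the lowest unadjusted limma p of the window, 0.412. How often regions elsewhere split in this way was not counted. Without TCPOBOP replicate 2 the difference was -40.3 (limma adjusted p = 0.970).

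Cover of the Gnas window was 41.6, 65.6, 48.8 and 47.6% in TCPOBOP replicates 1 to 4 and 63.0, 65.2 and 51.0% in vehicle replicates 1 to 3. Apart from TCPOBOP replicate 2, the TCPOBOP livers were below every vehicle liver. The means were 50.9 ± 10.3% with TCPOBOP (SD, n = 4) and 59.7 ± 7.64% with vehicle (SD, n = 3), a difference of -8.83 percentage points that did not pass the test (95% interval -30.53 to 25.46, two-sided exact permutation p = 0.257). Without TCPOBOP replicate 2 it was -13.7 (exact permutation p = 0.1, the smallest that 3 against 3 livers allow). It was -3.77 with the window widened by 20%, -5.23 with islands joined over 10 kb and -5.73 without TCPOBOP replicate 1.

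The Peg3 window had no base under islands in all 7 livers. Peg3 encodes a paternally expressed zinc finger protein. TCPOBOP replicates 1 to 4 had 2, 0, 1 and 0 islands in its 200 kb, and vehicle replicates 1 to 3 had 0, 2 and 1. Cover was 34.4, 0, 8.00 and 0% in TCPOBOP replicates 1 to 4 and 0, 16.4 and 8.40% in vehicle replicates 1 to 3. Of the 6 islands, 5 ranked between percentile 11.0 and 40.1 in their lists, and an island of 7.20 kb in vehicle replicate 2 ranked at 79.4. The region from 6598001 to 6660400 was found in 3 livers, TCPOBOP replicates 1 and 3 and vehicle replicate 2. It differed by 12.6 percentage points (SE 32.0, limma adjusted p = 1). From 6740001 to the end of the window, 60.0 kb, no liver had an island. The difference in cover was 2.33 percentage points (95% interval -22.4 to 57.86, two-sided exact permutation p = 1), and its sign turned without TCPOBOP replicate 1, to -5.60, and without vehicle replicate 1, to -1.80. Absence of an island means only that none was called at the depth of that library.

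**Figure D2:**
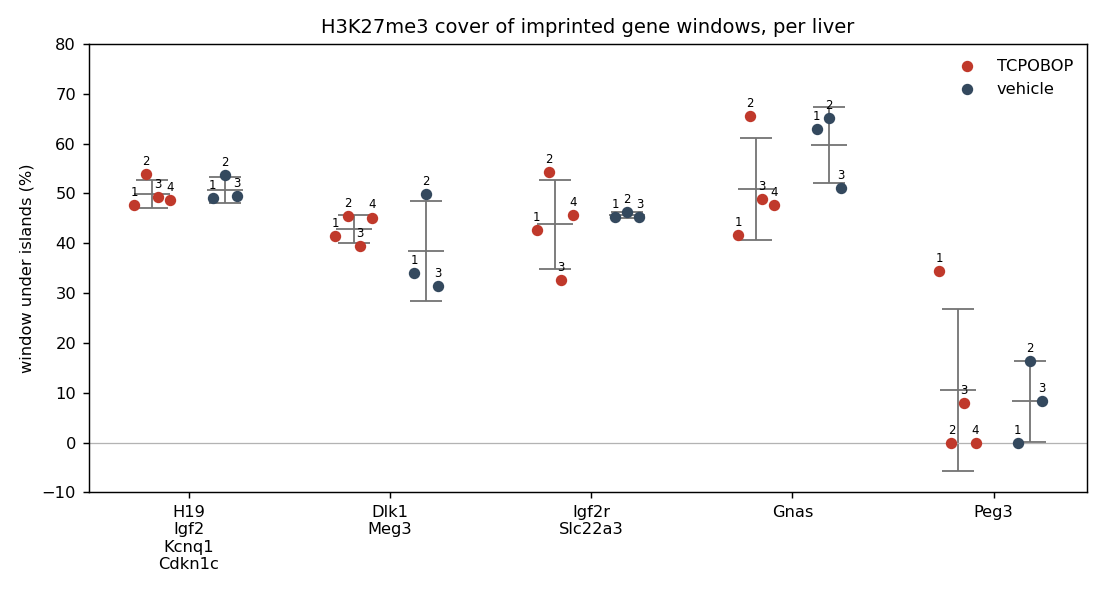
Percent of each window under islands, 1 point per liver labelled by replicate number, with TCPOBOP left of vehicle; bars are means with SD (n = 4 and n = 3). Points of the 2 groups overlap in all 5 windows, and replicate 2 is the highest vehicle liver in each.

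Merging the islands of all livers gave 34 regions in the windows. Every liver contributed to 12 of them (35.3%), and a single liver to 5. Genome-wide, every liver contributed to 6624 of 17394 regions (38.1%). With limma, the covered share was tested in 13988 regions to which 2 or more livers contributed and in which livers varied, and 29 of these lay in the windows. None of the 29 passed at an adjusted p under 0.05, and none of all regions did (0%). At an unadjusted p under 0.05 there was 1 of 29, the region from 111147601 described above, against a background of 3.87%. With the lowest 10% of scores left out, with lists of equal total length, or without trend and robust variance, there were 0. TCPOBOP cover was the higher in 16 and the lower in 13 of the 29, and in 7237 and 6741 of all regions tested. The median difference was 1.72 percentage points in the windows and 0.592 over all regions.

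In 0 of the 29 regions did the groups fail to overlap, against 3.45% of all regions, 1.8% with every TCPOBOP liver above every vehicle liver and 1.65% with every TCPOBOP liver below. Without vehicle replicate 2, 2 regions had all TCPOBOP livers above and 1 had all below, and 12.55% of all regions then separated in either direction. In bins of 10 kb, limma called 0 of 134 bins of the windows and 0 of all 76433 tested (0%), and 1 of 134 had an unadjusted p under 0.05, against a background of 2.99%. At single bases, 0.8 kb was under islands in all TCPOBOP livers and no vehicle liver, and 6 kb in all vehicle livers and no TCPOBOP liver, which were 0.0442% and 0.331% of the bases under any island in the windows, against 0.25% and 0.209% over the genome. The precision was limited: the median standard error of a difference was 24.0% of a region's length.

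**Figure D3:**
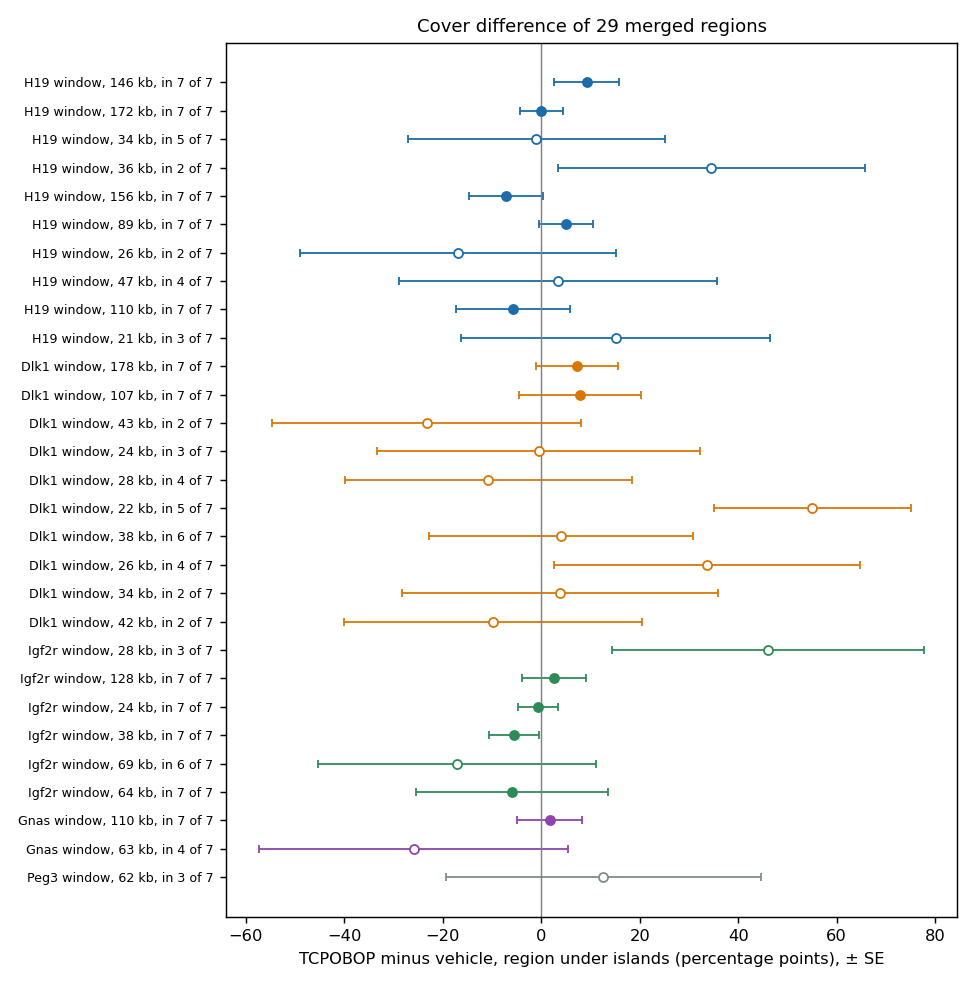
TCPOBOP minus vehicle difference in the percent of a region under islands, with its limma standard error, for the 29 merged regions tested; filled points are regions found in all 7 livers and open points those found in fewer. The 12 filled points lie between -7.12 and 9.20 percentage points, and the open points spread more widely with larger errors.

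The 120 islands above the median density of their own list had a median width of 37.2 kb, and the other 92 had one of 21.2 kb. The gap was widest in the H19-Igf2-Kcnq1-Cdkn1c window (78.8 against 21.2 kb) and was 31.6 against 20.4 kb in the Dlk1-Meg3 window and 23.2 against 22 kb in the Gnas window. In the Igf2r-Slc22a3 window the medians were close, 23.6 against 24.6 kb, and the widest islands were 95.6 against 50 kb. The 1 denser island of the Peg3 window was 7.2 kb wide, against a median of 16.8 kb for the others. Island width ran from 7.20 to 163.6 kb with a median of 25.4 kb. Islands at a place are counted once per liver and are not independent. Widths by density were not computed for the whole lists. In the H19-Igf2-Kcnq1-Cdkn1c window 41 of 70 islands were above the median density of their own list and 11 were above the 90th percentile, 7 of them the densest island described above. In the Dlk1-Meg3 window 23 of 57 islands were above the median of their list, in the Igf2r-Slc22a3 window 39 of 57, in the Gnas window 16 of 22 and in the Peg3 window 1 of 6.

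**Figure D4:**
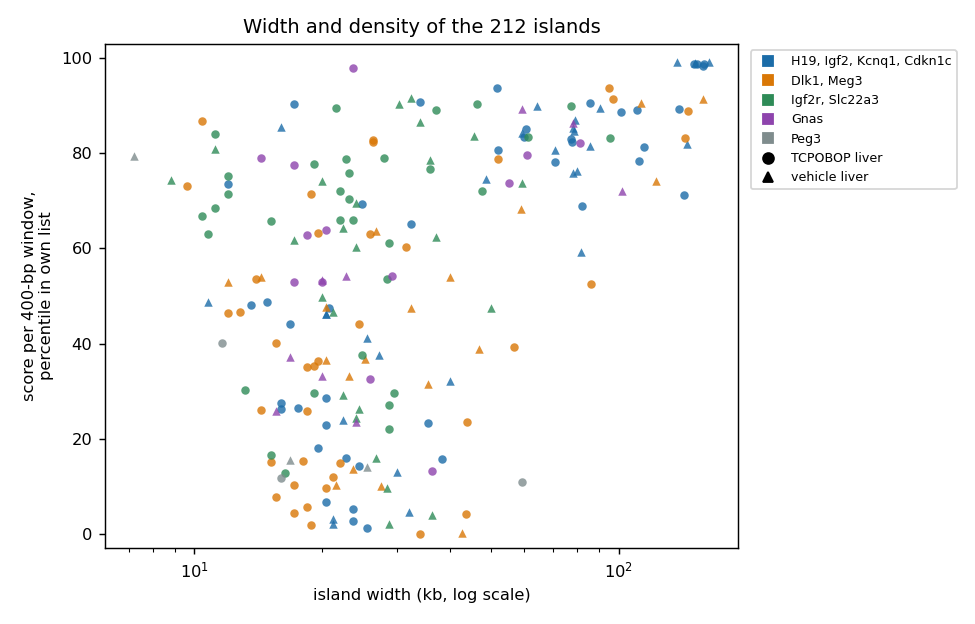
Width of each of the 212 islands in kb on a log axis against its score per 400-bp window as a percentile in its own list; colours are windows, circles TCPOBOP livers and triangles vehicle livers. The 7 points at the upper right, above the 98th percentile, are the densest island of the H19-Igf2-Kcnq1-Cdkn1c window. Of the 92 islands at or below the median of their list, 34 were in the Dlk1-Meg3 window and 29 in the H19-Igf2-Kcnq1-Cdkn1c window. The Igf2r-Slc22a3 window held 18, the Gnas window 6 and the Peg3 window 5.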

How the data were processed

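The submitters' processing notes name mm9 as the build, Bowtie2 (2.3.2) and SICER (1.1). The deposited score is the authors' SICER score of an island, 1 list per liver with no pooling, which grows with island length and depth. The window of 400 bp, gap of 2400 bp and E-value of 100 come from the names of the lists. Read numbers, an input control and duplicate handling were not given in the sources used here. The run names in all 7 labels carry 1 sequencing lane, and each gives a separate liver.

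Starts were shifted to 1-based coordinates. Cover of a window counts only the part of an island inside it. It was compared by two-sided exact permutation over all 35 splits of the livers, for 5 windows, with no adjustment over the windows alone. Islands of all livers were merged where they overlapped or touched. Fractions of these regions and of 10-kb bins were tested genome-wide with limma 3.58.1 (trend, robust; R 4.3.3; Benjamini-Hochberg, threshold 0.05). A trial of this fit on simulated data used large added differences in features of low spread, so it does not measure the power here. Intervals invert the exact test. Python 3.11.15 and NumPy 2.4.6 were used. Regions described were those in all livers, that with the lowest p in each window and any whose groups did not overlap. Shared edges were set beside all edges of the lists, not only those of regions found in all livers as first planned. Windows, tests and lists were chosen with earlier results of these data known. Promoter sequences and gene order came from RefSeq, GRCm38.p6, and none of its coordinates was used.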

Additional observations from a re-analysis of the deposited data

Results flagged for a closer look

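In 2 of 26 measures checked, a TCPOBOP liver differed from the other 3, which had tied values. Chance flags about 1 in 20 groups of untied values, and that rate does not hold for ties, where any other value is picked out. TCPOBOP replicate 1 had 4 islands in the Gnas window against 3 in each of the others. TCPOBOP replicate 2 had 57.6% of the Gnas-window region from 174176801 to 174240000 under islands, where the other 3 had none.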

How the results depend on the processing

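Under every alternative fitted with limma, 0 regions and 0 bins of the windows were called. No window passed the exact test with all 7 livers under any setting. With livers left out the smallest p possible was 0.0667 or 0.1, and with 3 pairs 0.25, so no window could pass there. Genome-wide, limma called 1 region when an island in at least 1 liver was enough, and without trend and robust variance 13 regions and 173 bins; the cause was not tested. Over single livers left out, the differences in window cover ran from -2.16 to 0.67 percentage points for H19-Igf2-Kcnq1-Cdkn1c, from 0.91 to 10.2 for Dlk1-Meg3, from -5.33 to 1.92 for Igf2r-Slc22a3, from -13.7 to -5.73 for Gnas and from -5.60 to 6.40 for Peg3, and 0 to 3 regions had groups that did not overlap. With islands in the lowest 10% of scores left out, the H19-Igf2-Kcnq1-Cdkn1c difference turned to 0.87. That of Igf2r-Slc22a3 was then -4.61, and -3.65 with lists of equal total length. With windows widened by 20%, the H19-Igf2-Kcnq1-Cdkn1c difference turned to 0.44 and that of Igf2r-Slc22a3 to 0.36, and that of Gnas was -3.77. The region from 12613601 to 12741600 turned to -1.56 with lists of equal total length. The region from 149723201 to 149894800 turned to -0.17 on the arcsine square root scale, and to -0.16 both with the replicate block and without TCPOBOP replicate 4. Its range over livers left out was -1.98 to 1.63, and the ranges of the other regions that turned were -0.22 to 12.3 (from 110590401), -6.25 to 2.08 (from 12761601), -16.0 to 1.04 (from 13021601), -3.71 to 5.34 (from 174044801) and -8.97 to 30.1 (from 6598001). In the labels, livers with the same replicate number are linked only by that number. The correlations of their deviations from the group means over 13988 regions were 0.0269, 0.278 and 0.0693 for numbers 1 to 3. Pairs of a TCPOBOP and a vehicle liver with unlike numbers ran from -0.174 to 0.106. The livers numbered 2 were thus the most alike of the pairs across groups. Pairs within a group were not set beside them. With the replicate block, TCPOBOP replicate 4 has no partner and does not enter the difference. The window differences were then -0.42, 3.66, -2.45, -7.73 and 5.87 in the order above, the same as without that liver, and the block called 0 regions and 0 bins. Leaving out both livers numbered 2 was chosen after seeing the data and gave -0.67, 9.32, -5.00, -11.0 and 9.93. Read depth was not known, so how far it limits an absent island was not tested.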
